A study of Mus musculus with 2 samples.

Results

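The imprinted Dlk1-Dio3 domain of mouse chromosome 12 carries a dense series of microRNA (miRNA) genes. Its miRNAs were examined in mononuclear cells isolated from the lamina propria of the colon, the connective tissue beneath the gut epithelium. The members were chosen by name: 36 precursors, each taken with its 5p and its 3p arm. All 36 had a probe for both arms, which gave 72 of the 1900 mouse miRNA probes. The cells came from male Balb/c mice that were either germ-free, meaning raised without microbes, or specific pathogen-free (SPF), meaning colonised but free of listed pathogens. Each group was represented by 1 array of total RNA. The labels state neither an age nor how many animals stand behind an array. With 1 array per group there is no replicate error, no difference was tested, and the number of arrays limits the precision.

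As background, genes of this domain are expressed from 1 parental allele. Dlk1, Rtl1 and Dio3 are protein-coding genes read from the paternal allele, whereas the non-coding RNAs Meg3, Rian and Mirg and the miRNAs are read from the maternal allele. The miRNAs are best known from embryo, placenta and brain, and the domain has also been studied in blood stem cells. miR-127 and its neighbours are made from the strand opposite Rtl1 and are perfectly complementary to its transcript. miR-134 is known for its control of Limk1 in dendritic spines of neurons.

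In GENCODE M21 (GRCm38) the 36 precursors occupy 157 kb, chr12:109586314-109743795, with 35 on the plus strand. mmu-miR-299b is on the minus strand, across the locus of mmu-miR-299a. mmu-miR-665 lies between Meg3 and Rtl1. mmu-miR-431, mmu-miR-433, mmu-miR-127 and mmu-miR-434 lie within Rtl1 on the opposite strand. mmu-miR-1188 and mmu-miR-370 lie within Rian, 21 precursors lie between the annotated ends of Rian and Mirg, and 8 lie within Mirg.

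Mature sequences were matched by name in the RefSeq table (GRCm38.p6), which held 69 of the 72 arms. The sequences shown first are those of the 6 brightest arms with a sequence by germ-free signal, 5′ to 3′, with the seed (bases 2 to 8, the part that pairs with targets) in capitals.
mmu-miR-494-3p: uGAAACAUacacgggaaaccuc
mmu-miR-370-3p: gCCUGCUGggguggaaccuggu
mmu-miR-667-5p: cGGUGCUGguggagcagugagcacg
mmu-miR-665-3p: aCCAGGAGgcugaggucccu
mmu-miR-665-5p: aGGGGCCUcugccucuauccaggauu
mmu-miR-323-5p: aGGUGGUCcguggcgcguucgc

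These 6 have 6 different seeds. A second set shows arms that are commonly taken as the functional product of their precursor and whose signal was at the level of spots without a probe on both arrays. The arms of this set were picked with their low signal known, so they do not stand for all arms of this kind. Of the 30 such arms in the list described below, 9 were above the floor on both arrays, among them miR-134-5p and miR-409-3p.
mmu-miR-127-3p: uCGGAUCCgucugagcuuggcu
mmu-miR-379-5p: uGGUAGACuauggaacguagg
mmu-miR-411-5p: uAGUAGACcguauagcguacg
mmu-miR-410-3p: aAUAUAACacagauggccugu
mmu-miR-495-3p: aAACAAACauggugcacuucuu
mmu-miR-543-3p: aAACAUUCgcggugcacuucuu
mmu-miR-376a-3p: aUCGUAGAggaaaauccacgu
mmu-miR-376b-3p: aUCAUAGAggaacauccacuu

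Over the 69 sequences there were 65 seeds, of which 4 were each shared by a pair of arms. The pairs were miR-411-3p with miR-379-3p, miR-299a-3p with miR-299b-3p, miR-494-5p with miR-410-5p, and miR-376b-5p with miR-376c-5p. None of these 8 arms was above the floor defined below on both arrays. Several arms are close in their whole sequence, so that 1 probe may also bind the other miRNA. miR-376b-3p and miR-376a-3p differ by 3 edits (substitutions, insertions or deletions), miR-300-3p and miR-381-3p by 3, and miR-543-3p and miR-495-3p by 4. miR-299a-5p and miR-299b-5p, from opposite strands of the same locus, differ by 1.

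Signal is the median intensity of a spot in arbitrary units, and net signal is the signal minus the mean of the BLANK spots, 128.5 (germ-free) and 158.3 (SPF). Pairs of values are given in that order throughout. The floor, drawn from 174 probe-free spots, is their mean + 2 SD, a signal of 165.8 and 202.2. Of those spots, 4.02% and 3.45% lay above it, and of the 32 negative control spots 34.4% and 21.9%. SPF net signals were multiplied by 0.849 to equalise the median net signal of miRNA probes that exceeded the BLANK mean + 2 SD on both arrays, a shift of -0.24 on the log2 scale. All 7 leukocyte miRNAs of the marker list were above the floor on both arrays, with median signals of 2106 and 1965. So were 54.8% of all mouse miRNA probes, all 8 epithelial markers and all 7 stromal and endothelial markers. Passing the floor therefore does not single out the labelled cells.

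Most arms of the domain gave little signal. In germ-free cells 26 of the 72 arms exceeded the floor, 36.1%, against 58.1% of all mouse miRNA probes and 34.4% of negative control spots. On the SPF array it was also 26 arms, against 56.9% of all probes and 21.9% of negative control spots. On both arrays it was 24 arms, 33.3%, against 54.8% of all probes. The median signal of the 72 arms was 148.7 and 185.7, and that of all miRNA probes 180.7 and 219.2. Of the other arms, 44 were above the floor on neither array, and their signals ran from 124.4 to 161.1 (germ-free) and from 146.6 to 194.9 (SPF). At or under the BLANK mean were 8 arms in germ-free and 10 in SPF cells, so these have no positive net signal. Over all 1900 probes it was 130 and 174.

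**Figure D1:**
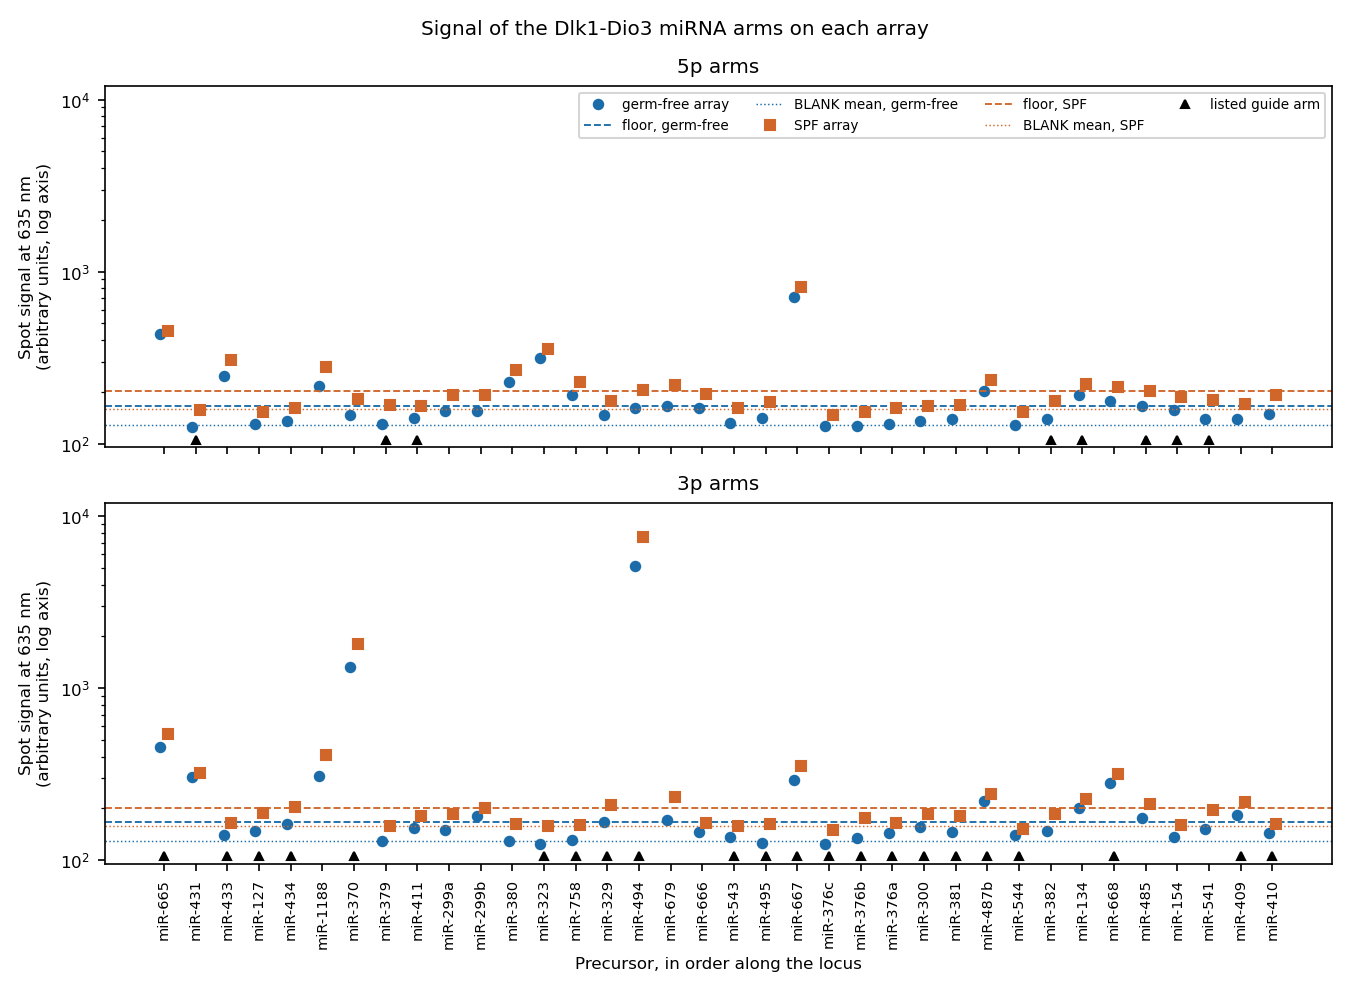
Spot signal (arbitrary units, log axis) of each 5p arm (upper panel) and 3p arm (lower panel), 1 value per array, with precursors in their order along the locus; dashed lines are the floors, dotted lines the BLANK means, and triangles mark the listed guide arms. miR-494-3p and miR-370-3p are the highest points in both groups, and 44 of 72 arms lie under the floor on both.

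The signal that was present came from very few arms. miR-494-3p had a signal of 5164 and 7528, ranks 46 and 34 among the 1900 probes. It held 50.9% of the summed net signal of the members in germ-free cells and 56.0% in SPF cells. miR-370-3p had signals of 1326 and 1812, ranks 163 and 141. Together this pair of arms held 63.0% and 68.6% of the members' net signal. All 72 arms together made up 0.966% and 1.11% of the net signal of all miRNA probes.

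The local background around the miR-494-3p spot was 3671 and 3714, which is 71.1% and 49.3% of its signal. At miR-370-3p it was 741 and 1149, or 55.9% and 63.4%. Both exceed the BLANK means several-fold, and the part of this background in the signals was not tested.

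The third brightest arm was miR-667-5p, at 712 and 809. miR-665 followed with both arms, the 3p arm at 457 and 543 and the 5p arm at 432 and 454. miR-1188-3p was at 309 and 409, miR-323-5p at 314 and 356, and miR-667-3p at 292 and 354. These arms were above the floor on both arrays by a margin larger than the floor's distance from the BLANK mean (net 37.2 and 43.9). miR-431-3p was at 306 and 322, miR-668-3p at 280.0 and 315, miR-433-5p at 246 and 305, and miR-380-5p at 228 and 267. Of the 12 arms with the highest mean net signal, 5 belong to the list of guide arms described below.

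The rest of the 24 arms lay closer to the floor. miR-1188-5p, the partner of the brighter 3p arm, was at 215 and 279. The arms of mmu-miR-487b were at 222 and 243 (3p) and at 202 and 235 (5p), and those of mmu-miR-134 at 201 and 225 (3p) and at 191 and 222 (5p). The lowest were miR-329-3p, at 166.3 and 209.9, and miR-679-5p, at 165.9 and 218.0. Arms at the edge crossed on 1 array only. miR-299b-3p (180.7 and 200.9) and miR-485-5p (166.3 and 201.0) passed in germ-free cells only. miR-434-3p (161.7 and 202.8) and miR-494-5p (160.6 and 205.6) passed in SPF cells only. The signals of these 4, named after their values were seen, lay at most 14.9 (germ-free) and 3.42 (SPF) from the floor, where the SD of probe-free spots was 11.1 and 13.0.

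Arms above the floor on both arrays were also counted by position, where the share over all 72 arms was 33.3%. Some of these groups hold few arms, and differences between them were not tested. Between Meg3 and Rtl1 both arms of miR-665 were above the floor. Of the 4 precursors opposite Rtl1, miR-431-3p and miR-433-5p were the only arms of 8 above the floor on both arrays, and miR-127-3p was at 147.5 and 188.9. Within Rian 3 of 4 arms were above it, and within Mirg 6 of 16. Between Rian and Mirg it was 11 of 42, a stretch that holds both the brightest arm (miR-494-3p) and the lowest germ-free signal (miR-376c-3p, 124.4). Arms of miR-379, miR-411, miR-543, miR-495, miR-376a, miR-376b, miR-376c, miR-300, miR-381 and miR-544 were all under the floor on both arrays, although their neighbours miR-494-3p and miR-667-5p lie in the same stretch.

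The comparison of the arms of a precursor asked whether the arm known as the main product, called here the guide arm, carried the signal. A list of 30 guide arms was taken from general knowledge. Different probes bind with different affinity, so an order of signals is not an order of amounts. Of the 30 guide arms, 9 were above the floor on both arrays and 19 on neither. Of their 30 partner arms, 10 were above it on both and 19 on neither. The median net signal of the guide arms was 16.5 and 22.0, and that of the partner arms 19.1 and 22.6.

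At least 1 arm was above the floor on both arrays for 17 precursors. The 3p arm was the brighter one on both arrays in 12 of them and the 5p arm in 5. In 8 of the 17 the other arm was above the floor on neither array, and in 2, mmu-miR-494 and mmu-miR-485, on 1 array only, so the same order on both arrays follows in part from how the 17 were chosen. Where both arms were above the floor on both arrays, the order was the same in 7 of 7. Over all 36 precursors, 19 of them with no arm above the floor on both arrays, it was the same in 33. With the local background it was the same in 13 of the 17. Of the 14 with a listed guide arm, the guide arm was the brighter one in 7 and its partner in the other 7. The guide arm was the brighter one in mmu-miR-494, where the 5p arm was at 160.6 and 205.6, and in mmu-miR-370, where the 5p arm was at 147.5 and 182.5. No ratio of arms is given for these, since miR-370-5p was under the floor on both arrays and miR-494-5p on the germ-free array.

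The partner was the brighter arm in mmu-miR-323, mmu-miR-431, mmu-miR-433, mmu-miR-758, mmu-miR-667, mmu-miR-134 and mmu-miR-485. In mmu-miR-134 and mmu-miR-485 the arms differed on both arrays by less than the SD of probe-free spots (11.1 and 13.0). Their order is therefore not resolved. Among the precursors with the brighter guide arm, this was so for mmu-miR-487b, on the SPF array only. For mmu-miR-323 the guide arm miR-323-3p was at 124.9 and 157.4, under the BLANK means, with the 5p arm at 314 and 356. For mmu-miR-431 the guide arm miR-431-5p was at 124.6 and 155.8, also under them. For mmu-miR-433 the guide arm miR-433-3p was at 139.4 and 164.4, against 246 and 305 for the 5p arm. In mmu-miR-667, where both arms were above the floor, the 5p arm exceeded the 3p arm by 1.83 and 1.73 on the log2 scale of net signal. In mmu-miR-134 the log2 ratio of 5p over 3p was -0.23 and -0.08. In mmu-miR-485 the guide arm miR-485-5p was at 166.3 and 201.0, the latter under the floor, and the 3p arm at 174.8 and 212.8.

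**Figure D2:**
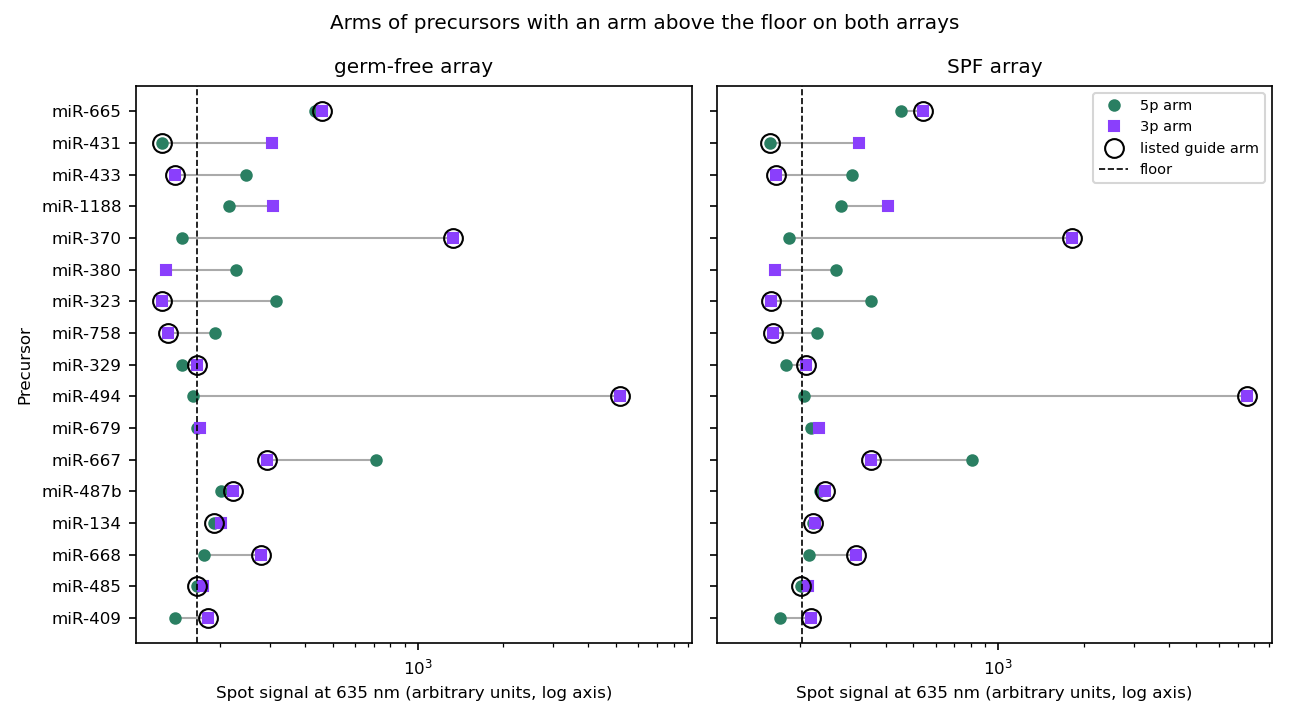
Spot signal (arbitrary units, log axis) of the 5p and the 3p arm of the 17 precursors with an arm above the floor on both arrays, 1 panel per array and 1 value per arm; open circles mark listed guide arms and the dashed line is the floor. In 8 of the 17 the other arm is under the floor in both panels, and the guide arm is the brighter one in 7 of the 14 that have a listed one.

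The comparison of SPF with germ-free cells asked whether the domain's miRNAs differ with the microbiota. Over the 24 arms above the floor on both arrays, the median log2 SPF over germ-free was -0.04, and over all 1041 such miRNA probes it was -0.05. Above 0 were 11 arms and below 0 were 13. The values ran from -0.37 to 0.61 with an SD of 0.26, where the SD over all 1041 probes was 0.35 and their range -1.61 to 1.86. At least 1.5-fold higher in SPF cells was 1 of 24 arms, against 3.27% of all probes, and at least 1.5-fold lower were 0 of 24, against 4.42%. Over all probes 34 were higher and 46 lower, which became 101 and 15 without scaling, 24 and 73 with spike control scaling and 202 and 99 with the local background.

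A technical error was estimated for each value from repeated bright control spots (log2 SD 0.092) and from the spread of spots without a probe. It covers spread within an array and none between arrays. By this error 23 of the 24 log2 values were within 2 technical SE of 0, and over all probes it was 81.7%. The exception was miR-494-3p, with a log2 value of 0.31 and a technical SE of 0.13. miR-494-3p was positive under all scalings and backgrounds tried, from 0.22 to 0.88, with the highest value under subtraction of the local background. The second brightest, miR-370-3p, had a log2 value of 0.23 (technical SE 0.13) and turned to -0.29 with the local background.

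The arm past 1.5-fold was miR-679-3p. Its signal was 170.2, just above the floor of 165.8, and 233.2. The log2 value was 0.61 with a technical SE of 0.48. It was 0.18 without background subtraction and 0.05 with the local background. Its partner miR-679-5p had a log2 value of 0.44 (technical SE 0.55).

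The lowest values were those of miR-487b-3p (log2 -0.37, technical SE 0.31), miR-134-3p (-0.36, 0.38) and miR-431-3p (-0.35, 0.20). miR-665-5p was at -0.27 (technical SE 0.15) and miR-134-5p at -0.21 (0.41). With the local background miR-134-3p and miR-431-3p turned positive, at 0.54 and 0.45. miR-665-3p, at -0.01 with the blank background, was at -1.01 with the local background.

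**Figure D3:**
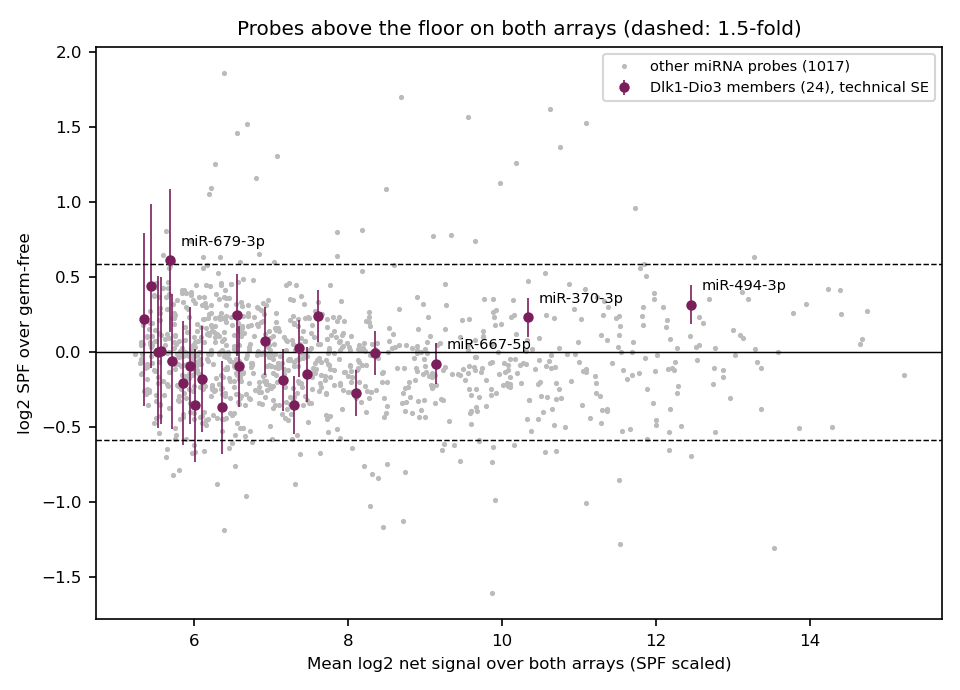
Log2 SPF over germ-free net signal against the mean log2 net signal for the 24 members (with technical SE bars) and the 1017 other miRNA probes above the floor on both arrays; dashed lines mark 1.5-fold. The members lie between -0.37 and 0.61, with 1 arm, miR-679-3p, past a dashed line.

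Where both arms of a precursor were above the floor on both arrays, the log2 values of its arms were set side by side. For these 7 precursors the log2 SPF over germ-free of the 5p arm minus that of the 3p arm ran from -0.26 to 0.19, with technical SEs of 0.21 to 0.73. All 7 were within 2 technical SE of 0. Each single value of these arms was also within 2 technical SE of 0. Values this close to 0 leave little room for a difference past 2 technical SE, though arms of opposite sign could still give one. The differences do not show that the arms changed together. Both arms fell on the same side of 0 in 5 of the 7, a count of signs of values near 0. mmu-miR-1188 had the closest pair, with log2 values of 0.25 (5p) and 0.24 (3p). mmu-miR-487b had -0.18 and -0.37, and mmu-miR-668 had 0.01 and -0.19.

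Among the marker lists, the 8 epithelial markers were all at least 1.5-fold higher in SPF cells, with a median log2 value of 1.31 and a summed net signal of 5458 and, scaled, 14529. The 7 markers of leukocytes, the labelled cells, summed to 31615 and 16881, with a median of -0.59. At least 1.5-fold lower were 4 of them and 1 was higher, miR-223-3p (log2 0.74). The largest part of both sums came from miR-150-5p, with a net signal of 18699 and, before scaling, 8894. The 7 stromal and endothelial markers summed to 2048 and 1690, with a median of 0.01, 0 higher and 1 lower. Of 3 erythroid markers 2 were above the floor on both arrays, none of them past 1.5-fold, and the list summed to 5669 and 4694. Of the 5 neuronal markers, miR-128-3p alone was above the floor (log2 -0.43), while miR-124-3p was at 140.2 and 169.5 and miR-9-5p at 132.6 and 157.4. The part of these cell types in the members' values was not tested, and in bulk RNA fewer cells of a type and less RNA per cell cannot be told apart.

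Base composition differed with signal among the members. The 23 arms above the floor on both arrays with a known sequence had a median G + C content of 58.3%, and the 43 above it on neither had 45.5%. Over all probes with a sequence the same medians were 57.7% and 45.5%, so this is not particular to the members. Of the 35 arms with at least 50% G + C, 19 were above the floor on both arrays, and of the 34 with less it was 4. The rank correlation of signal with G + C across the 69 arms was 0.61 on both arrays, and across the 1614 probes with a sequence it was 0.53. These are descriptions across probes that share an array and are no independent replicates. The 4 arms with less than 50% were miR-494-3p, the brightest arm, miR-433-5p and miR-380-5p, each at 45.5%, and miR-329-3p at 40.9%.

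Split once at 50% G + C, the shares above the floor on both arrays were as follows. With at least 50% G + C it was 54.3% of members and 71.2% of the other probes, and with less it was 11.8% of members and 176 of 586 others. Composition within each range was not matched, and the differences were not tested.

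**Figure D4:**
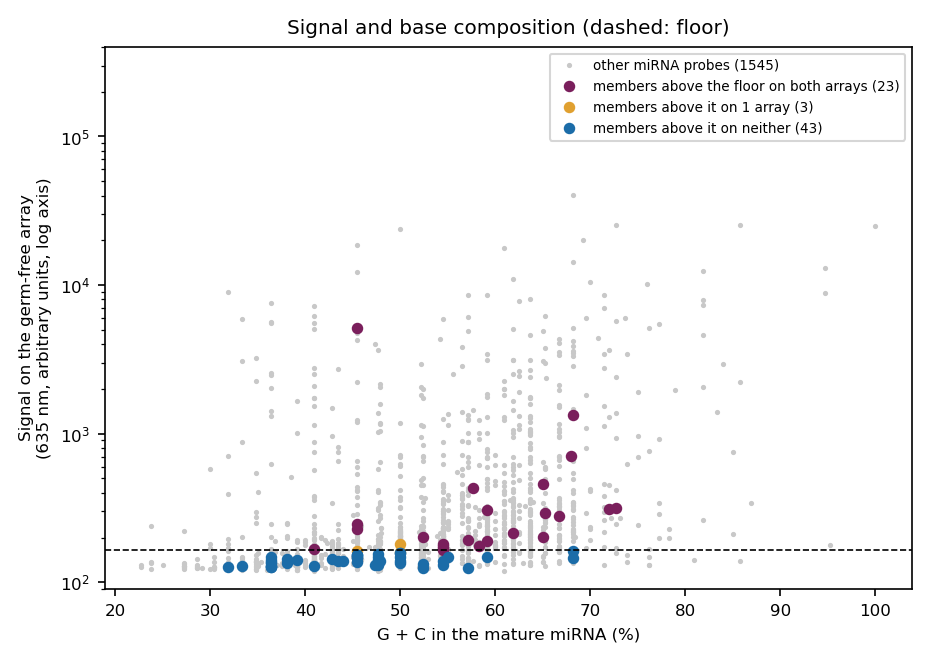
Germ-free spot signal (arbitrary units, log axis) against the G + C content of the mature miRNA, 1 point per probe, for members by whether they were above the floor and for the 1545 other miRNA probes with a sequence; the dashed line is the floor. Members above the floor on both arrays sit mostly at 50% G + C or more, with miR-494-3p the high point at 45.5%.

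Other miRNAs of the same domain that were not among the 36 precursors gave a similar picture. Of 39 such arms, 10 were above the floor on both arrays, 25.6%, against 54.8% of all probes. Their median log2 ratio was -0.02. None of the 10 reached 1.5-fold, where 3.27% of all probes were higher and 4.42% lower. With 10 arms this does not set them apart from all probes. The brightest were miR-3072-5p, at 5508 and 6961 (log2 0.10), miR-770-3p, at 1380 and 1713 (0.08), and miR-3072-3p, at 670 and 739 (-0.13). Among other large miRNA clusters, 6 of 14 arms of the embryonic miR-290 cluster were above the floor on both arrays, 42.9%. Among the Sfmbt2-type repeat miRNAs it was 37 of 69 arms, 53.6%. The share was 33.3% of the members and 54.8% of all probes.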

How the data were processed

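Total RNA was labelled with Hy5 and hybridised, per the labels. The deposited intensity of each of 3200 spots is the spot median, with a local background intensity beside it, and the scans used 3 gains, per the file headers. Platform and scanner software: not given in the sources used here. Groups were taken from the sample titles, with 1 array each and no test between groups. The BLANK mean (896 and 895 spots, 1 flagged spot left out) was subtracted, SPF values were scaled, and log2 ratios of SPF to germ-free were taken for probes above the floor on both arrays with Python 3.11.15, pandas 2.3.3 and scipy 1.17.1. The floor came from spots without a probe because 66.7% and 71.8% of them passed a floor from BLANK spots. The technical SE combines the spread of 4 control probes with 8 spots each and that of spots without a probe. The procedure was also run on simulated arrays with known fold changes. Their additive noise had the SD of BLANK spots, 4.53 and 5.33, where that of spots without a probe was 11.1 and 13.0. The simulation therefore cannot show how values near the floor behave. Named by rule were the 12 arms with the highest mean log2 net signal, arms past 1.5-fold, arms above 1.5 times the floor on 1 array only (none), both arms of precursors with both above the floor, and detected arms sharing a seed (none); other arms were named after their values were seen. Alternatives covered floors, backgrounds, scalings, a pseudocount, block medians, arm choice and the fold threshold. Members, lists and rules were chosen with earlier results of these data known.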

Additional observations from a re-analysis of the deposited data

How the results depend on the processing

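The number of members above the floor on both arrays, 24, was 46 with the floor from BLANK spots, 14 with the floor from negative control spots and 19 with a floor at mean + 3 SD. The median log2 value of the members, -0.04, lay between -0.13 (spike control scaling) and 0.20 (no scaling, where that of all probes was 0.19) over 14 alternatives. Its sign depends on the scaling and on other choices. It was also positive with the floor from BLANK spots (0.02), a pseudocount (0.001) and block medians removed (0.08). The 1 arm at least 1.5-fold higher became 3 with the floor from BLANK spots, and 2 with the background from spots without a probe, with the local background and without scaling. It became 0 with the floor from negative control spots, the mean + 3 SD floor, no background subtraction, spike control scaling, a pseudocount, block medians removed and a fold threshold of 2. With the local background miR-494-3p and miR-1188-5p were past 1.5-fold higher and 2 arms, miR-665-3p and miR-134-5p, past 1.5-fold lower, where all probes gave 202 higher and 99 lower; the other alternatives gave 0 lower. The same brighter arm on both arrays was found in 30 of 30 precursors with the floor from BLANK spots and 11 of 11 with that from negative control spots. It was 13 of 17 with the local background and 33 of 36 with no floor and a pseudocount. The guide arm was the brighter one on both arrays in 7 of 17 by the main settings. It was 12 of 30 with the floor from BLANK spots and 4 of 17 with the local background. These totals include precursors without a listed guide arm. Precursors whose order differed between the arrays were not counted for the guide arm. The cause of these changes was not tested. For arms near the floor, the weak signal over background limits every fold value.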
